A study of Rattus norvegicus with 11 samples.

Results

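Lungs of rats kept in hypoxia and given SU5416 were compared with lungs of rats kept in room air, on 7 of the 11 arrays of a rat expression series. SU5416 is a small molecule that blocks the receptor tyrosine kinase of VEGF, vascular endothelial growth factor. The comparison took in the 3 arrays of hypoxia with SU5416 and the 4 room air arrays, chosen by their titles, and all 31042 probe sets other than the array maker's 57 controls. Each array measured RNA of lung tissue from Dahl salt-sensitive rats of 250 to 350 g, taken at the 3.5-week time point of the experiment. The room air rats received vehicle. The rats given SU5416 breathed about 9.5% oxygen (FiO2). A further 4 arrays, from rats given vehicle at the same oxygen fraction, are set beside the comparison as hypoxia alone. A group that also received sorafenib is not analysed here, and the dose and schedule of SU5416 are not given in the sources used here. The 11 arrays hold no group given SU5416 in room air, so in this comparison hypoxia and SU5416 cannot be told apart. For that reason hypoxia values are given beside it for many genes, though not for all. Where none is given, how far hypoxia alone already differed from room air is not stated. The labels do not say whether each array stands for a separate animal, so the p-values measure the spread between these arrays, which may in part be technical.

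Combining VEGF receptor blockade with chronic low oxygen is a widely used way to produce severe pulmonary hypertension in rats. VEGF signals through receptors on endothelial cells that keep lung capillaries alive, while hypoxia alone leads small pulmonary arteries to constrict and to gain smooth muscle. In the combined model, vessel lumens become narrowed by cells of the wall and by matrix, and the right ventricle works against a raised pressure. SU5416 is an indolinone and is also known as a ligand of the aryl hydrocarbon receptor, a transcription factor that binds DNA together with ARNT and induces enzymes that oxidise foreign compounds.

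Values are log2 signals as deposited, where a difference of 1 is a fold of 2. A probe set is a group of short probes against 1 transcript stretch, and many genes have several. Background was the 95th percentile of 27 bacterial control probe sets on the 11 arrays, 5.72 on the log2 scale, and a probe set counted as above background when its mean passed that level in room air or in hypoxia with SU5416. Of the 31042 probe sets 25986 did (83.7%). The lung markers Sftpc, a surfactant protein of alveolar type II cells, Ager, a receptor of alveolar type I cells, and Scgb1a1, the club cell secretory protein, were among the bright signals. Sftpc lay between 12.93 and 13.89 on the 7 arrays, Ager between 12.68 and 13.29, and Scgb1a1 between 13.02 and 13.87. For each of the 3 the 2 groups overlapped.

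RNA quality differed between the room air arrays. The 3′ minus 5′ signal of beta-actin, which grows as RNA is broken down, was 2.24 and 1.33 on room air arrays 1 and 2, against 0.51 and 0.60 on room air arrays 3 and 4 and 0.56 to 0.67 on the 3 SU5416 arrays. Its part in the differences was not tested, and many of the results below are also given without arrays 1 and 2.

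In the fit across all probe sets (limma, Benjamini-Hochberg adjustment), 19 of 31042 probe sets (0.0612%) had an adjusted p below 0.05. The signal rose for 11 of them (0.0354% of those tested) and fell for 8 (0.0258%). An unadjusted p below 0.05 was reached by 3845 probe sets, and the median standard error of a difference was 0.20. Of the 19, 15 were annotated to 1 gene, 1 to several genes and 3 to none. Mybpc2, a myosin-binding protein, and Cdh1, E-cadherin, had a called probe set that lay below background in both groups, so no fold is given, and they are named after their values were seen. The other 13 named genes are described below. Without room air arrays 1 and 2 the count was 25, of which 7 were among the 19, and with the beta-actin difference as a covariate it was 14, again with 7 shared. The count also moved when other single arrays were left out, to 8 without room air array 4, 12 without room air array 1, 9 without SU5416 array 1, 8 without hypoxia array 3, 11 without hypoxia array 1 and 38 without hypoxia array 4. The hypoxia arrays enter through the shared estimate of spread. Cyp1b1, Cyp1a1 and Ms4a7 kept their call in every alternative run, Nqo1 in 19 of 21 and Tiparp in 16 of 21. The calls of the other named genes were kept in fewer, from 9 of 20 for Ahrr to 4 of 20 for Slc6a17.

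**Figure D1:**
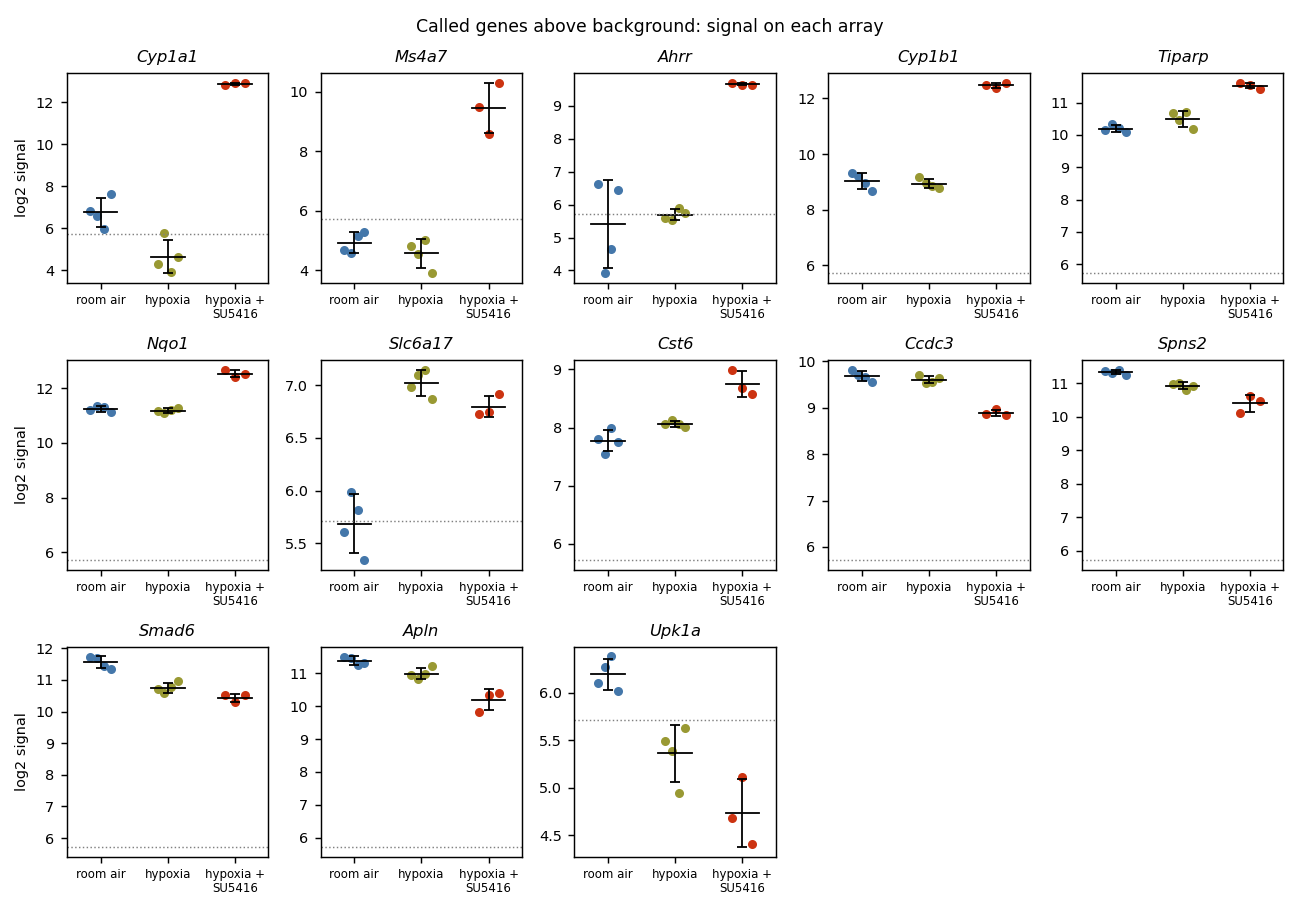
Log2 signal of the 13 called genes above background on each array. Points are arrays (4 room air, 4 hypoxia, 3 hypoxia with SU5416), horizontal lines are group means, error bars are 1 SD and the dotted line is the background level of 5.72. The vertical scale differs between panels. Cyp1a1, Cyp1b1, Ahrr, Ms4a7, Tiparp, Nqo1 and Cst6 lie above both other groups on all 3 SU5416 arrays, while Slc6a17 and Smad6 lie close to hypoxia alone.

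Genes regulated by the aryl hydrocarbon receptor made up most of the few genes that rose at the adjusted threshold. Of 9 measured genes in a list of its targets, 5 rose, which was 5 of the 7 genes that rose when each gene of the array was read at its brightest probe set (0.0492% of 14217 genes). The median of the list was 1.29, against -0.02 over all 14217 genes, and the same list had a median of -0.06 in hypoxia alone against room air. The mean level of the list per array was 8.77 to 9.13 in room air and 10.71 to 10.85 with SU5416. With an unadjusted limma p below 0.05 and a fold of at least 1.4, 423 of the 14217 genes (2.98%) were higher, 6 of them in the list. The list was chosen with earlier results of these data known, so these values describe it and are not an independent test.

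The receptor and ARNT bind DNA at sites built around the letters GCGTG. The 250 bases before the annotated start of 4 of the genes that rose are printed to show where these letters stand, in capitals, as GCGTG on the printed strand or as CACGC where the match is on the other strand. The sequences are from RefSeq on GRCr8, 5′ to 3′ in the direction of the gene. Cyp1b1 is at chr6:21094315-21094564 on the plus strand, Ahrr at chr1:30821969-30822218 on the plus strand, Nqo1 at chr19:52220268-52220517 on the minus strand and Tiparp at chr2:152063519-152063768 on the plus strand.
Cyp1b1: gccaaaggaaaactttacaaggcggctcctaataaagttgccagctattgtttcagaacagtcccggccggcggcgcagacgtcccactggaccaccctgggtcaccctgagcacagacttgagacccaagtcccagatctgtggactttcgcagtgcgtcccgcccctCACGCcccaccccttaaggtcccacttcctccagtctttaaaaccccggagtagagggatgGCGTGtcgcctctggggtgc
Ahrr: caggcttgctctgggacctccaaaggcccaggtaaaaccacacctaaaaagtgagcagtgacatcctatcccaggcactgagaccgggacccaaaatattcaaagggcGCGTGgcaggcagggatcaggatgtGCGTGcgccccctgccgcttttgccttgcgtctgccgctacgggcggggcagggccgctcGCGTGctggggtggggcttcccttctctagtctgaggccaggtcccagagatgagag
Nqo1: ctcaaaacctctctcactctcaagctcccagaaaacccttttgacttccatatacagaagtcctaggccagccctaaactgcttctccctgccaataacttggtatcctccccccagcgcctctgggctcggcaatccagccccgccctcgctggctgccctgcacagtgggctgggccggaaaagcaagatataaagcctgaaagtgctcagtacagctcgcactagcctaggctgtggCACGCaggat
Tiparp: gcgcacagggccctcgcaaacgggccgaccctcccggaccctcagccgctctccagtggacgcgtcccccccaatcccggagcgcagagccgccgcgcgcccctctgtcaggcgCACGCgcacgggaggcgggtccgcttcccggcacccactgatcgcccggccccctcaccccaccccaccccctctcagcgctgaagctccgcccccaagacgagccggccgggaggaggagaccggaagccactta

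The Ahrr window held 3 matches, the Cyp1b1 window 2, and those of Nqo1 and Tiparp 1 each. Searched on both strands, GCGTG stood in 41.0% of the 11700 windows of 250 bases available for genes on the array, so the match is a description of these letters and not of a bound site. Of the 7 list members with a window, 5 held a match. The fifth was Aldh1a3, which was lower with SU5416. Outside the list, the window of Slc6a17, another gene that rose, held 2 matches. The windows of Cyp1a2 and Nfe2l2 held none. Those of Ms4a7, which rose, and of Apln and Upk1a, which fell, held none either. No window was available for Cyp1a1, Aldh3a1, Cst6, Smad6, Ccdc3 or Spns2.

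Cyp1a1 encodes the cytochrome P450 that is the best known target of the receptor. It read 6.85, 6.60, 5.98 and 7.63 in room air and 12.84, 12.92 and 12.90 in hypoxia with SU5416. All 3 SU5416 arrays stood far above every room air array, and they lay close to each other. The difference was 6.12 ± 0.45 (SE, n = 3 and 4), a 69.6-fold rise with an adjusted p of 0.000874 in limma. Hypoxia alone gave 4.30, 5.78, 3.94 and 4.63, with a mean below background, so the fold over hypoxia is a bound of at least 144-fold.

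Cyp1b1, a related P450 that metabolises oestrogens and polycyclic hydrocarbons, read 9.31, 9.21, 8.98 and 8.67 in room air and 12.48, 12.38 and 12.56 with SU5416. Both groups were tight and did not overlap. The rise was 3.43 ± 0.16, or 10.8-fold, with the smallest adjusted p of the comparison (3.83e-05). Hypoxia alone, between 8.79 and 9.17, fell inside the range of room air.

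Ahrr encodes the repressor that competes with the receptor for ARNT. Its signal was 6.64, 3.91, 4.66 and 6.44 in room air and 9.70, 9.64 and 9.64 with SU5416. Room air arrays scattered around background while the SU5416 arrays agreed closely. The gene rose at least 15.4-fold over background, and limma gave an adjusted p of 0.0488.

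Tiparp, an ADP-ribosyltransferase induced by the receptor that in turn limits its activity, read 10.14, 10.35, 10.20 and 10.09 in room air and 11.60, 11.55 and 11.43 with SU5416. It rose 2.52-fold (1.33 ± 0.14, adjusted p = 0.0131). The second Tiparp probe set read 9.22, 8.76, 8.92 and 8.43 against 10.07, 9.40 and 9.93, with no overlap between groups. There the difference was 0.97 ± 0.24, with an adjusted p of 0.164. Hypoxia alone was 0.31 above room air at the first probe set and 0.13 above it at the second.

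Nqo1, the quinone reductase that is a target of both the aryl hydrocarbon receptor and NRF2, read 11.20, 11.35, 11.30 and 11.13 in room air and 12.68, 12.40 and 12.52 with SU5416. It rose 2.44-fold (1.29 ± 0.11, adjusted p = 0.00242). Hypoxia alone read 11.08 to 11.29, inside or next to the room air range. Nqo1 was the only one of 19 NRF2 target genes to pass either threshold used here, and the median of that list was 0.15, and 0.08 without room air arrays 1 and 2.

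The other 4 measured members of the receptor's list did not pass the adjusted threshold. Aldh3a1, an aldehyde dehydrogenase, was 0.51 ± 0.17 higher and its groups overlapped (adjusted p = 0.284). Nfe2l2, which encodes NRF2 itself, was 0.31 ± 0.12 higher without overlap (adjusted p = 0.338). Cyp1a2 and Aldh1a3 were lower by 0.29 ± 0.18 and 0.30 ± 0.16. These values show that the rise was not shared by every listed target in whole lung.

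Ms4a7, a membrane protein of macrophages, was the called gene with the clearest step from no signal. It read 4.67, 4.57, 5.15 and 5.28 in room air, all below background, and 9.49, 8.58 and 10.28 with SU5416. Its signal rose at least 13.3-fold over background (adjusted p = 0.00263 in limma), and it was also below background in hypoxia alone, at 3.89 to 5.03. Signal went from undetected on the 8 arrays without SU5416 to well above background on the 3 with it.

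Ms4a7 stood with the C1q genes, which encode the recognition subunits of the first complement component and are made in the lung mainly by macrophages. C1qa read 9.47, 9.71, 10.04 and 10.10 in room air and 11.15, 10.85 and 11.59 with SU5416. C1qc read 8.39, 9.17, 9.27 and 9.51 against 10.73, 10.41 and 10.99. For both genes the lowest SU5416 array lay above the highest room air array. The differences were 1.37 ± 0.20 for C1qa and 1.62 ± 0.24 for C1qc, each with an adjusted p of 0.0555, just outside the threshold. C1qb was 1.75 ± 0.36 higher (adjusted p = 0.113). In hypoxia alone the means of C1qa, C1qc and C1qb were 9.91, 9.44 and 8.61, against 9.83, 9.09 and 8.41 in room air.

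Below the adjusted threshold, a looser descriptive threshold was used for lists: an unadjusted p below 0.05 with a fold of at least 1.4, called passing in what follows. At the brightest probe set of each gene, 423 of 14217 genes (2.98%) passed as higher and 437 (3.07%) as lower. By sign alone 6742 of the 14217 were higher and 7472 lower. That split stands beside the counts of higher or lower list members given below. Among 21 macrophage and monocyte genes, 7 passed as higher and 2 as lower, with a median of 0.23. The higher ones included Mrc1, the mannose receptor (0.62 ± 0.18), and Cd14, the endotoxin co-receptor (0.85 ± 0.26). The lower ones were Adgre1, a surface receptor of mature macrophages (-0.87 ± 0.17), and Lyve1. Markers of the same cell class thus stood on both sides of room air, and in whole lung a change in the number of cells of a type and a change in RNA per cell cannot be told apart. The macrophage median was 0.09 without room air arrays 1 and 2.

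The complement list had 8 of 18 genes passing as higher and none as lower, with a median of 0.39 against 0.09 in hypoxia alone. Besides the C1q genes these were C1r and C1s, the proteases of the first component, Cfi, C6 and Serping1, the inhibitor of C1r and C1s. C1r read 10.17, 10.35, 10.27 and 10.16 in room air and 11.13, 10.74 and 11.11 with SU5416. The groups did not overlap, and the difference was 0.76 ± 0.12 (adjusted p = 0.0715). Without room air arrays 1 and 2 the list median was 0.28. The 11 genes of MHC class II presentation had a median of 0.35, with 10 of 11 higher and 2 passing, RT1-DMa (0.55 ± 0.14) and Ifi30 (0.54 ± 0.17). Their median was 0.16 without room air arrays 1 and 2.

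The remaining genes called and above background were Slc6a17, Cst6, Upk1a, Smad6, Ccdc3, Spns2 and Apln. Slc6a17, a neuronal amino acid transporter, read 5.61, 5.99, 5.82 and 5.34 in room air and 6.73, 6.75 and 6.92 with SU5416. It rose at least 2.11-fold over background (adjusted p = 0.0488), and hypoxia alone was as high, at 6.87 to 7.15. Cst6, a secreted cysteine protease inhibitor, read 7.80, 7.55, 7.99 and 7.75 in room air and 9.0, 8.68 and 8.57 with SU5416. It rose 1.96-fold (adjusted p = 0.0488), with hypoxia alone at 8.01 to 8.13. Upk1a, a tetraspanin of urothelium, fell at least 1.39-fold from a room air range of 6.02 to 6.38 to below background (adjusted p = 0.0488). Hypoxia alone was below background as well, at 4.94 to 5.63.

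Endothelial and vascular signalling genes were among those that fell. Apln encodes apelin, a peptide made by capillary and tip endothelial cells. It read 11.51, 11.47, 11.24 and 11.30 in room air and 9.82, 10.35 and 10.41 with SU5416 at the brighter of its probe sets. All 3 SU5416 arrays stood below all room air arrays. It fell 2.27-fold (-1.19 ± 0.16, adjusted p = 0.0488). The second probe set gave -0.96 ± 0.19, without overlap (adjusted p = 0.105). Hypoxia alone stood between the groups, at 0.39 and 0.42 below room air.

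Spns2 encodes the transporter that releases sphingosine-1-phosphate from endothelial cells. It read 11.36, 11.30, 11.40 and 11.24 in room air and 10.11, 10.61 and 10.45 with SU5416, and fell 1.91-fold (adjusted p = 0.0488). The second probe set read 10.46, 10.61, 11.01 and 10.69 against 9.84, 10.13 and 9.96. Neither probe set overlapped between the groups. At the first, hypoxia alone read 10.78 to 11.01, a mean difference of -0.41 from room air.

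Smad6 encodes an inhibitory Smad that is induced by bone morphogenetic protein (BMP) signalling in endothelium. It read 11.73, 11.70, 11.45 and 11.36 in room air, 10.70, 10.58, 10.78 and 10.96 in hypoxia alone and 10.51, 10.29 and 10.51 with SU5416. It fell 2.18-fold against room air (-1.12 ± 0.14, adjusted p = 0.0276). Most of that distance was already present in hypoxia alone, which was 0.81 below room air, and the 2 hypoxic groups differed by 0.32.

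Ccdc3, secreted by endothelial cells and adipocytes, read 9.82, 9.70, 9.65 and 9.55 in room air, 9.52 to 9.69 in hypoxia alone and 8.85, 8.97 and 8.85 with SU5416. It fell 1.73-fold (-0.79 ± 0.10, adjusted p = 0.0362). Hypoxia alone overlapped room air. The second Ccdc3 probe set read 9.06, 8.71, 9.0 and 8.42 in room air and 7.92, 8.19 and 7.84 with SU5416, a difference of -0.81 ± 0.17 (adjusted p = 0.117).

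Agreement between probe sets gave a second description of the comparison. Probe sets of 1 gene read the same RNA on the same arrays, so they are not replicates. Their agreement is not independent support for a difference between the groups. Of 3832 genes with at least 2 probe sets above background, 498 had at least 1 passing probe set. In 422 of them it was a single probe set, and their other probe sets had the same sign 457 times and the opposite sign 198 times. A gene was counted as differing at several probe sets when at least 2 passed in the same direction and none passed in the other. This held for 73 genes (1.91%), 42 higher (1.10%) and 31 lower (0.809%). In 28 of the higher and 20 of the lower genes every probe set above background passed. In 51 of the 73 no passing probe set had overlapping groups. Of all probe sets 11.9% did not overlap in either direction, but the passing threshold largely fixes the separation, so nothing is read from that count. The same holds where a gene below, picked by this threshold or by its p, is said not to overlap. There the separation describes the arrays and is not further support.

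Without room air arrays 1 and 2 the count was 108, of which 41 were among the 73. With the beta-actin difference as a covariate it was 79, with 47 shared. All single probe set values below, other than those of Tiparp, Apln, Ccdc3 and Spns2 given above, had an adjusted p above 0.05 in limma. They are therefore given as differences and not as changes.

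**Figure D2:**
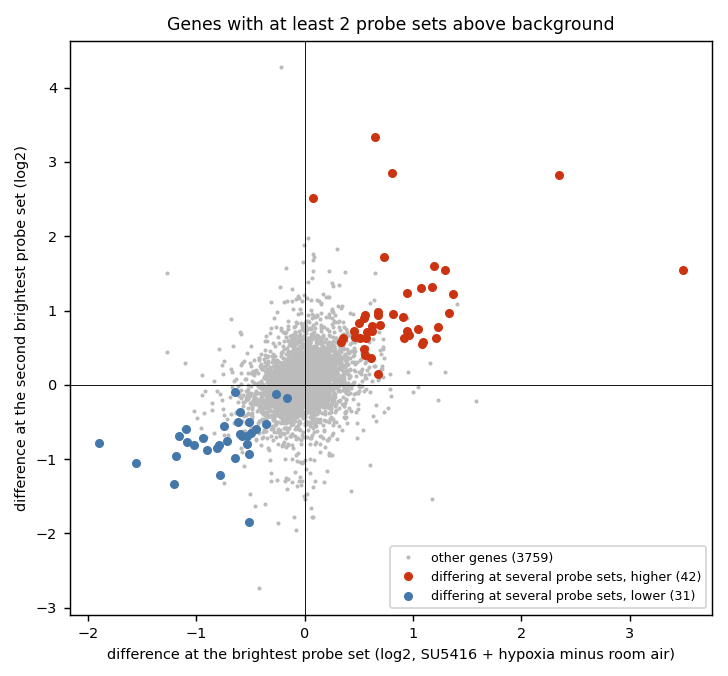
Differences (log2, hypoxia with SU5416 minus room air) at the brightest and the second brightest probe set of the 3832 genes with at least 2 probe sets above background. Grey points are genes not counted, red points the 42 genes higher at several probe sets and blue points the 31 lower ones. The coloured points lie in 2 opposite quadrants, which the required agreement of direction largely fixes, and the grey points cluster around 0 on both axes.

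The higher set held 4 genes of the list of collagens and collagen processing, 1 of matrix glycoproteins and 1 of metalloproteinases. Col18a1, a basement membrane collagen whose end fragment is endostatin, read 7.95, 7.55, 8.13 and 8.09 in room air and 9.59, 9.36 and 8.80 with SU5416 at the first probe set. At the second it read 7.90, 8.18, 8.39 and 7.96 against 9.59, 9.16 and 9.10. Neither overlapped, and the differences were 1.32 ± 0.22 and 1.17 ± 0.23. At these probe sets hypoxia alone was 0.31 and 0.44 above room air. Vcan, the large proteoglycan versican, passed at all 4 of its probe sets, with differences of 0.79 to 1.02. On each of them the lowest SU5416 array stood above the highest room air array. Hypoxia alone was 0.15 to 0.61 above room air at the Vcan probe sets.

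Col1a1 and Col1a2, the chains of type I collagen, were higher by 0.92 and 0.91 and by 0.56 and 0.63 at their 2 probe sets. For Col1a1, hypoxia alone was 0.47 and 0.565 above room air. Lox, the oxidase that cross-links collagen and elastin, was higher by 0.69 and 0.81. For Col1a1, Col1a2 and Lox the pair of passing probe sets was lost without room air arrays 1 and 2, whose Col1a1 signals (10.19 and 9.93 at the first probe set, 11.01 and 11.12 at the second) were the lowest of the room air group. Col18a1 and Vcan kept it in that setting.

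Of 27 collagen and collagen processing genes 9 passed as higher and 1, Bmp1, as lower, and 25 were higher. The median was 0.30, against 0.11 in hypoxia alone, and 0.16 without room air arrays 1 and 2. Bmp1 gave -0.59 at its brightest probe set and 0.27 at its second brightest. Among 35 genes of matrix glycoproteins, proteoglycans and elastic fibres, 8 passed as higher and 1 as lower, with a median of 0.22. Eln, elastin, was 1.23 ± 0.43 higher at its brightest probe set, but its second brightest gave -0.21. Spp1, osteopontin, was 1.39 ± 0.62 higher with overlapping groups. The lower one was Ccn1, a matricellular protein induced by growth factors (-0.91 ± 0.23). Among 20 metalloproteinases and inhibitors, 4 passed as higher and none as lower. Timp1, an inhibitor of metalloproteinases, read 9.40, 9.78, 10.48 and 10.16 in room air and 11.22, 10.63 and 11.08 with SU5416.

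Frzb, a secreted Wnt antagonist, read 7.79, 7.26, 7.84 and 7.35 in room air and 9.13, 8.53 and 8.90 with SU5416. At its second probe set it read 7.65, 7.18, 7.78 and 7.17 against 9.16, 8.50 and 9.31. The groups were well apart on both, with differences of 1.30 ± 0.24 and 1.54 ± 0.29. Hypoxia alone was 0.39 and 0.32 above room air, so most of the distance lay between the 2 hypoxic groups. Cpxm2, a carboxypeptidase-like protein, showed the same order, 1.07 and 1.31 above room air against 0.57 and 0.43 in hypoxia alone. Aspn, asporin, a small leucine-rich proteoglycan, was higher by 1.37 and 1.23, but its pair of passing probe sets was lost without room air arrays 1 and 2. For Aspn, hypoxia alone was 0.79 and 0.39 above room air.

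Thy1, a surface glycoprotein of fibroblasts, T cells and neurons, read 6.60, 4.72, 6.91 and 4.94 in room air and 9.13, 8.17 and 8.61 with SU5416 at the dimmer of its probe sets. At the brighter it read 7.90, 7.5, 7.75 and 7.47 against 8.67, 8.35 and 8.38. Neither pair of groups overlapped, and hypoxia alone was 0.53 above room air at the dimmer probe set and 0.25 below it at the brighter. Among 15 fibroblast and pericyte genes, 2 passed as higher, Thy1 and Lum, with a list median of 0.24. Tm4sf1, a membrane protein of endothelial and mesenchymal cells, was 1.19 ± 0.25 and 1.60 ± 0.30 higher, with hypoxia alone 0.33 and 0.48 higher. Mmp23, a membrane-anchored metalloproteinase, passed at 2 of 3 probe sets (0.94 ± 0.15 and 1.24 ± 0.20), while the third gave 0.14 ± 0.17. At the passing ones hypoxia alone was 0.49 and 0.78 above room air.

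Ntrk2, the receptor for brain-derived neurotrophic factor, passed at 3 of 4 probe sets and had the largest second-ranked difference of all. At its brightest probe set it read 8.61, 8.56, 9.77 and 9.27 in room air and 11.23, 11.64 and 11.32 with SU5416. Hypoxia alone averaged 11.62 there, slightly above the SU5416 group. The brighter passing probe sets gave 2.35 ± 0.51 and 2.82 ± 0.59, and hypoxia alone was 2.57 and 3.02 above room air. The third had a room air mean below background, and SU5416 was at least 13.7-fold higher there. The difference of Ntrk2 from room air was thus as large in hypoxia without SU5416 at the brighter probe sets. Gabrp, a subunit of the GABA-A receptor found in epithelia, was 1.55 ± 0.35 higher at the probe set measured in both groups, with hypoxia alone 0.95 higher. At the other, where the room air mean was below background, it was at least 8.37-fold higher. The mean there was 8.22 in hypoxia alone and 8.78 with SU5416.

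RT1-CE5, a gene of the class I major histocompatibility complex, passed at 2 of 4 probe sets and was high there on 2 of the 3 SU5416 arrays only. It read 0.75, 1.79, 1.82 and 1.84 in room air and 9.76, 10.19 and 1.55 with SU5416 at the probe set of the largest difference. At its second passing probe set it read 5.22, 4.01, 4.41 and 5.48 against 8.10, 8.17 and 5.64. Its values split the SU5416 group, and close relatives in the same gene family can share probes, so the gene is uncertain.

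**Figure D3:**
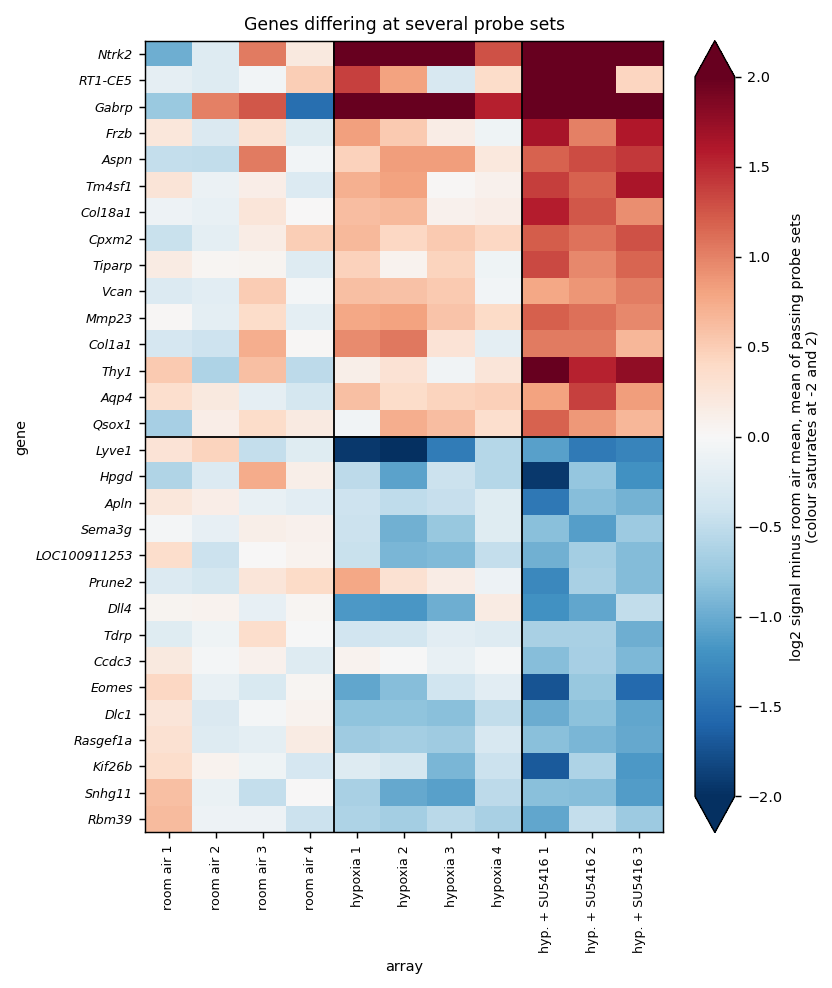
Log2 signal minus the room air mean on each of the 11 arrays, averaged over the passing probe sets, for the 15 genes ranked first in each direction by the second largest difference among their passing probe sets. Red is above and blue below the room air mean, and the colour scale saturates at -2 and 2. RT1-CE5 is high on SU5416 arrays 1 and 2 and not on array 3, Ntrk2 and Lyve1 are alike in both hypoxic groups, and Frzb, Thy1, Prune2 and Ccdc3 are strongest on the SU5416 arrays.

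Other higher genes had roles in lipid supply. Idi1, Cyp51 and Hsd17b7, enzymes of cholesterol synthesis, were higher by 0.96 and 0.67, by 0.55 and 0.49 and by 0.72 and 0.58 at their 2 probe sets. All 19 measured genes of cholesterol synthesis and uptake were higher and 8 passed, with a median of 0.42 against 0.20 in hypoxia alone. Sqle, squalene epoxidase, was 0.94 ± 0.30 higher and Acat2 0.76 ± 0.19 higher. The median was 0.22 without room air arrays 1 and 2, and the passing pairs of Idi1 and Cyp51 were lost there. Vldlr, a lipoprotein receptor, passed at 3 of 4 probe sets with differences of 0.50 to 0.73, but fewer than 2 passed without room air arrays 1 and 2. Among 24 genes of fatty acid synthesis and oxidation none passed, and the median of 0.15 was 0.02 without those arrays.

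Signalling and epithelial genes completed the higher set. Inhba, the subunit of activin A, read 6.71, 7.15, 6.63 and 6.67 in room air and 8.0, 7.74 and 8.26 with SU5416 at its brighter probe set. That was 1.21 ± 0.20 higher (adjusted p = 0.0721), and its second probe set was 0.63 ± 0.25 higher with overlap. Fstl3, which binds and blocks activin, was higher by 0.94 and 0.56. Il6st, the shared receptor chain gp130, passed at 3 of 4 probe sets, with the fourth also higher (0.45 ± 0.13). Cxcl12, a chemokine of stromal and endothelial cells, was 0.62 ± 0.12 and 0.97 ± 0.28 higher, and at the third probe set hypoxia alone was higher than the SU5416 group by 0.65. The passing pair of Cxcl12 was lost without room air arrays 1 and 2. Aqp4, a water channel of alveolar and airway epithelium, passed at 2 of 3 probe sets, where it was 1.23 ± 0.25 and 0.77 ± 0.23 higher. The remaining genes of the higher set were Qsox1, Smoc2, Itga7, Cebpd, Kif23, Prrx1, Glul, Efemp2, Cxcl3, Rhoj, Psmd14, Egflam, Myrip, Cp, Dgat2, Kng2l1, Scnn1g and Scarb1. Without room air arrays 1 and 2, Qsox1, Smoc2, Kif23, Glul, Cxcl3, Psmd14, Cp, Scnn1g and Scarb1 were no longer counted.

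Ranked first in the lower set was Lyve1, a hyaluronan receptor of lymphatic endothelium and of a subset of lung macrophages. It read 12.75, 12.99, 12.33 and 12.44 in room air and 11.62, 11.24 and 11.40 with SU5416. The groups did not overlap at either probe set, and the differences were -1.21 ± 0.33 and -1.34 ± 0.38. Hypoxia alone was lower still, by 1.44 and 1.53. At the second probe set room air arrays 1 and 2 read 12.51 and 12.59 against 11.43 and 11.76 on arrays 3 and 4, and without arrays 1 and 2 the passing pair of Lyve1 was lost. Hpgd, the enzyme that inactivates prostaglandins, read 10.76, 10.91, 11.49 and 11.10 in room air and 8.76, 10.06 and 9.71 with SU5416, a difference of -1.55 ± 0.32. At its second probe set the groups overlapped (-1.06 ± 0.41). Hypoxia alone was -0.56 and -0.74 from room air at the 2 probe sets of Hpgd.

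Sema3g, a semaphorin of arterial and capillary endothelium, was -0.90 ± 0.16 and -0.87 ± 0.31 from room air without overlap. Hypoxia alone was already -0.525 and -0.679 from room air at these probe sets. Dll4, the Notch ligand of tip and arterial endothelial cells, read 11.07, 11.06, 10.41 and 10.59 in room air and 9.46, 9.58 and 10.24 with SU5416. Hypoxia alone was 0.76 below room air there and SU5416 1.02 below it. At the second Dll4 probe set hypoxia alone was -0.80 and SU5416 -0.82 from room air. The passing pair of Dll4 was lost without room air arrays 1 and 2. Bmp6, a BMP ligand of endothelium, passed at 2 of 3 probe sets (-0.61 ± 0.11 and -0.50 ± 0.13). Dlc1 passed at 2 of 4, with -1.14 ± 0.20 and -0.76 ± 0.13. Its brightest probe set gave -0.27 ± 0.15.

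Prune2, a large protein with a BCH domain, was lower at all 3 probe sets by 0.82, 1.21 and 0.78, while hypoxia alone was higher than room air by 0.48, 0.07 and 0.28. At the brightest it read 10.32, 9.97, 10.58 and 10.66 in room air and 9.50, 9.79 and 9.51 with SU5416. Tdrp passed at all 4 probe sets, with differences of -1.15, -0.54, -0.79 and -0.53 and none with overlap, and hypoxia alone was -0.36, -0.29, -0.24 and -0.32 from room air. Pcp4l1 was lower by 0.99 and 0.64, with hypoxia alone -0.03 and 0.02 from room air. Pgm2l1, a sugar phosphate enzyme, was lower by 1.16 and 0.69. For Pcp4l1 and Pgm2l1 the passing pair was lost without room air arrays 1 and 2. The rest of the lower set was LOC100911253, Eomes, Rasgef1a, Kif26b, Snhg11, Rbm39, Epha3, Sema6a, Ints6l, Jchain, Lig4, Stxbp6, Zfp292, Mapt, Il10ra, Rit2, Ceacam1 and Zap70. Of these, only LOC100911253, Rasgef1a, Kif26b, Snhg11, Ints6l, Rit2 and Ceacam1 were still counted without room air arrays 1 and 2.

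The probe sets of 3 genes passed in both directions, so no direction is given for them. These were Adcy5, an adenylyl cyclase (1.17 higher at one probe set, and lower at the other, where SU5416 was below background), Pon1, a paraoxonase (0.60 and -1.08), and Tpm3, a tropomyosin with many transcript forms. For Tpm3 passing differences ran from -0.58 to 1.05.

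**Figure D4:**
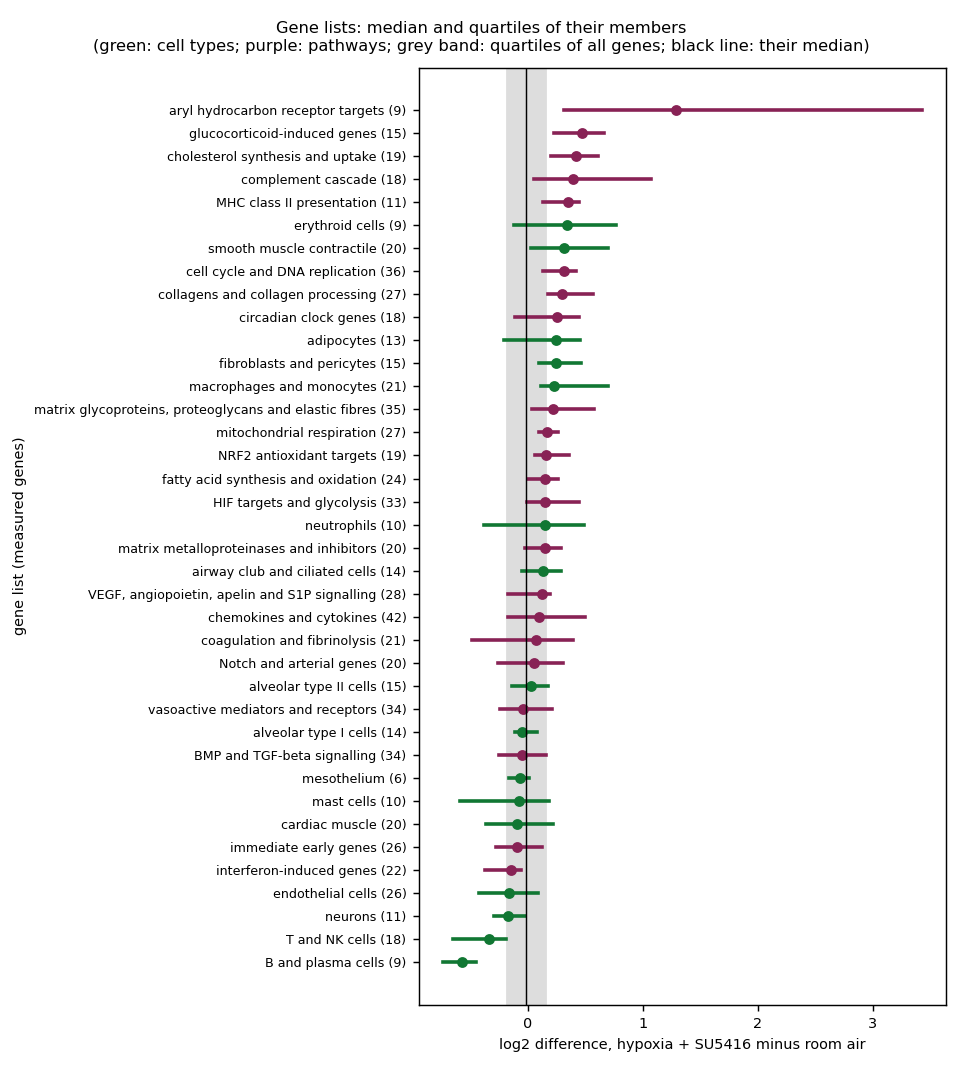
Median (point) and quartiles (bar) of the log2 difference, hypoxia with SU5416 minus room air, over the measured genes of 38 lists, each gene at its brightest probe set. Green lists are cell types and purple lists are pathways, with the number of measured genes in brackets. The grey band spans the quartiles of all 14217 genes around their median of -0.02. The aryl hydrocarbon receptor list lies farthest right, and the lists of T and NK cells and of B and plasma cells lie farthest left.

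Endothelial identity genes stood lower in part. Of 26 measured, 18 were lower, 4 passed as lower and 1 as higher, and 8 were lower without overlap between groups (6.83% of all genes were). The median was -0.17 against -0.14 in hypoxia alone, and -0.09 without room air arrays 1 and 2. The mean level of the list per array was 11.52 to 11.65 in room air and 11.28 to 11.45 with SU5416. Besides Apln and Spns2 the lower ones were Car4, the carbonic anhydrase of alveolar capillaries, and Kdr, the VEGF receptor that SU5416 was made to block. Car4 read 10.77, 10.93, 10.87 and 10.73 in room air and 9.81, 10.04 and 9.89 with SU5416. The 2 groups were each tight and well apart (-0.91 ± 0.14), but the adjusted p was 0.059.

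Kdr read 12.61, 12.64, 12.58 and 12.48 in room air and 11.87, 12.18 and 12.21 with SU5416, a difference of -0.49 ± 0.11 (adjusted p = 0.136). The other VEGF receptor gene, Flt1, overlapped between groups (0.19 ± 0.15), as did the angiopoietin receptor Tek (-0.43 ± 0.20) and the pan-endothelial marker Pecam1 (-0.05 ± 0.14). Vegfa itself was 0.52 ± 0.17 lower, without overlap, and Pgf, placental growth factor, was 0.90 ± 0.23 higher. The 28 genes of VEGF, angiopoietin, apelin and sphingosine-1-phosphate signalling had 1 passing higher and 4 passing lower, with a median of 0.12 that turned to -0.06 without room air arrays 1 and 2.

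BMP genes are of note in this tissue because mutations of the receptor gene Bmpr2 underlie heritable pulmonary arterial hypertension. Bmpr2 overlapped between groups (-0.31 ± 0.20). Grem1, the secreted BMP antagonist gremlin, read 6.09, 6.58, 6.03 and 5.67 in room air and 7.78, 8.43 and 8.42 with SU5416. All SU5416 arrays stood above all room air arrays, by 2.12 ± 0.34 (4.34-fold, adjusted p = 0.0672), and hypoxia alone was between them at a mean of 6.98. Of 34 BMP and TGF-beta genes 2 passed as higher, Grem1 and Inhba, and 2 as lower, Smad6 and Bmp6, and the median was -0.05.

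Genes of vascular tone passed in both directions. Of 34 measured, 6 passed as higher and 2 as lower. Nos3, endothelial nitric oxide synthase, read 7.45, 7.49, 7.42 and 7.59 in room air and 8.05, 8.12 and 8.26 with SU5416. Ptgis, prostacyclin synthase, read 9.32, 9.42, 9.79 and 9.65 against 10.30, 10.41 and 10.40. Neither gene overlapped between groups, with differences of 0.65 ± 0.13 and 0.83 ± 0.15. Edn1, the vasoconstrictor endothelin-1, was 0.71 ± 0.18 higher and Ptgs2, an inducible cyclooxygenase, 1.15 ± 0.36 higher. Slc6a4, the serotonin transporter, read 10.06, 10.12, 10.50 and 10.74 in room air and 9.44, 9.43 and 9.20 with SU5416, a difference of -1.0 ± 0.19. Genes for dilators and for constrictors were thus both higher.

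Smooth muscle contractile genes were higher in part. Of 20 measured, 15 were higher and 6 passed, none as lower, with a median of 0.31 against 0.12 in hypoxia alone and 0.34 without room air arrays 1 and 2. Actg2, gamma smooth muscle actin, read 10.43, 10.65, 10.99 and 10.53 in room air and 11.74, 11.99 and 11.71 with SU5416. Tpm2, beta tropomyosin, read 10.65, 10.53, 10.63 and 10.35 against 11.52, 11.67 and 11.56. Both were separated from room air on every array (1.16 ± 0.24 and 1.04 ± 0.22). The classical markers Acta2 (0.40 ± 0.18) and Myh11 (0.22 ± 0.13) overlapped between groups.

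Coagulation and fibrinolysis genes stood on both sides of room air, with 4 passing as higher and 3 as lower of 21. Plaur, the urokinase receptor, read 6.34, 7.25, 7.07 and 7.5 in room air and 8.98, 8.62 and 8.79 with SU5416. Tfpi, the inhibitor of tissue factor, read 10.83, 11.01, 10.86 and 10.95 against 9.88, 10.30 and 10.31. Neither overlapped, and limma gave differences of 1.76 ± 0.27 and -0.75 ± 0.13 with adjusted p-values of 0.0605 and 0.0721. F3, tissue factor, was 0.81 ± 0.20 higher.

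Lymphocyte genes stood lower. Of 18 T and NK cell genes 17 were lower and 4 passed, with a median of -0.34, and of 9 B and plasma cell genes 8 were lower and 4 passed, with a median of -0.57. The same lists had medians of -0.44 and -0.41 in hypoxia alone. Bank1, a B cell adaptor, read 9.72, 9.49, 8.96 and 9.26 in room air, 7.96 to 8.99 in hypoxia alone and 7.92, 7.92 and 7.94 with SU5416. It was 1.43 ± 0.25 below room air, with no overlap. Jchain, the joining chain of secreted antibodies, was lower at both probe sets (-1.10 ± 0.23 and -0.59 ± 0.21), and there hypoxia alone was close to room air at the brighter (-0.11). The passing pair of Jchain was lost without room air arrays 1 and 2. Both list medians were lower still without room air arrays 1 and 2, at -0.45 and -0.77.

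Glucocorticoid-induced genes had a median of 0.47, with 6 of 15 passing as higher and 13 higher, and 0.52 in hypoxia alone. Sgk1, a kinase that regulates sodium transport, and Ddit4, an inhibitor of mTOR signalling, were among them (0.59 ± 0.22 and 0.83 ± 0.26). Of 33 HIF target and glycolytic genes, 5 passed as higher and 1 as lower, with a median of 0.15 against 0.13 in hypoxia alone. Ldha, lactate dehydrogenase A, was 0.58 ± 0.11 higher and Bnip3, a mitophagy receptor, 0.82 ± 0.23 higher. Of 36 cell cycle and DNA replication genes 32 were higher, but only 4 passed, with a median of 0.31 against 0.04 in hypoxia alone and 0.21 without room air arrays 1 and 2. Mitochondrial respiration genes had 25 of 27 higher and 2 passing, with a median of 0.17.

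Markers of the other cell types a lung sample can hold gave few passing genes. No gene passed among 15 of alveolar type II cells, 14 of airway club and ciliated cells, 20 of cardiac muscle and 6 of mesothelium, and 1 of 14 passed among alveolar type I cells, which was Vegfa. The cardiac muscle list, which reads the muscle sleeve of pulmonary veins and any attached heart tissue, had array means of 6.81 to 9.75 in room air and 7.06 to 8.47 with SU5416. That range within the groups was larger than the list's median difference of -0.09, which was -0.40 without room air arrays 1 and 2. Among 10 neutrophil genes 2 passed as higher, Lcn2 (2.11 ± 0.60) and Il1r2, which was below background in room air and at least 2.5-fold higher with SU5416, and the list median of 0.14 turned to -0.46 without room air arrays 1 and 2. Lcn2 is also made by epithelium, and read 9.11, 10.70, 12.12 and 11.33 in room air and 13.26, 12.42 and 13.10 with SU5416. Interferon-induced genes had a median of -0.15 with 1 of 22 passing, Irf1, as lower.

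The other lists had few passing genes or had them on both sides. Chemokines and cytokines had 5 higher and 1 lower of 42, with Ccl21, a chemokine of lymphatic vessels, 0.86 ± 0.16 higher. Notch and arterial genes had 2 higher and 2 lower of 20, among them Heyl, a Notch target of mural cells (0.72 ± 0.23), and Nrarp, a Notch feedback regulator (-0.81 ± 0.17). The second brightest probe set of Heyl gave 0.10. Immediate early genes had 2 higher and 2 lower of 26, mast cell genes 1 and 1 of 10, and adipocyte genes 1 and 1 of 13. Circadian clock genes had 1 higher of 18, which was Bhlhe40 (0.50 ± 0.11), erythroid genes 1 higher of 9 and neuronal genes 1 lower of 11.

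How many probe sets stood on each side depended on scaling. As deposited, 858 probe sets passed as higher (2.76%) and 1425 as lower (4.59%), so 37.6% were higher. After centring each array on its median the counts were 1097 and 1151 (48.8% higher), and after quantile normalization 1053 and 1128 (48.3% higher). The median difference over all probe sets was -0.04 as deposited.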

How the data were processed

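Lung RNA of 11 rat samples was measured on Affymetrix rat arrays: 4 of room air, 4 of hypoxia and 3 of hypoxia with SU5416, grouped by the labels. The values are log2 signals deposited by the authors, made with RMA per the submitters' processing notes. The trimmed mean of the linear values was close to 500 on every array (499.98 to 500.03), a scaling that RMA does not apply, so how probes were summarised is uncertain, and some values are below 0. Arrays hold no counts, and their number limits the precision.

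Probe sets were named from the platform annotation, with symbols updated through RefSeq where possible: 20826 had 1 gene (20758 with a current record), 436 several and 9780 none, giving 14217 genes. All 31042 probe sets were fitted on the 11 arrays with limma 3.58.1 in R 4.3.3 (group means, lmFit and eBayes), with Benjamini-Hochberg adjustment over all of them and a threshold of 0.05. The fit was tested on simulated data. Folds of a gene below background in a group are bounds against background (5.72) and are written as at least.

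Named genes were the called genes above background, up to 15 genes per direction that differed at several probe sets, up to 3 genes per list of smallest p, and a panel of vascular and lung markers. Other list members are named as examples. List genes were read at their brightest probe set without a filter (728 of 822 symbols measured, 38 lists). The members and lists were chosen with earlier results of these data known. Replicate numbers did not pair the arrays. Alternatives covered scaling, filters, array weights, a replicate block, RNA quality, the study's own method (SAM) and leaving out each array.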

Additional observations from a re-analysis of the deposited data

Results flagged for a closer look

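In 8 of the 185 named probe sets 1 room air array stood apart from the other 3 by more than Dixon's 95% limit. Chance passes that limit in about 1 of 20 groups, so 8 of 185 is near the share that chance gives. Room air array 1 was low for RT1-CE5 (0.75, others 1.79 to 1.84, all below background), Qsox1 (7.15, others 7.89 to 7.99), Pparg (7.79, others 8.78 to 8.98) and Eno1 (10.67, others 11.28 to 11.33). Room air array 2 was low for LOC100911253 (7.31, others 7.86 to 7.90) and high for Inhba (7.15, others 6.63 to 6.71) and Bhlhe41 (10.06, others 9.49 to 9.58). Room air array 4 was low for Des (9.69, others 10.32 to 10.38). Arrays 1 and 2 are those with the large beta-actin difference, whose part in these values was not tested.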

How the results depend on the processing

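The number of called probe sets (19) was the less stable of the 2 counts. It was 32 with array weights, 43 after quantile normalization and 145 with trend and robust eBayes. Fitting and adjusting only probe sets above background gave 62, and doing so for only those at or above the median level gave 214. The count was 108 at an adjusted p below 0.10, 366 by SAM (delta 0.639, 35 permutations), and 8 with only the 7 arrays. Leaving out 1 array gave 8 to 38. With the replicate number as a block it was 6, but same-numbered arrays did not deviate together (r = 0.0859, -0.0768 and -0.0913). The count of genes differing at several probe sets (73) was 63 with the replicate block, 10 when a fold of at least 2 was required, and 56 to 93 with 1 array left out. Other alternatives kept both counts within 1.5 times, although the genes were partly different ones. Of 3843 values of named probe sets under alternatives, 3580 kept direction and side of the threshold, 121 lost it, 126 gained it and 16 reversed. Most of the 185 named probe sets were not called in the main fit, so for them keeping the side means staying uncalled. All 121 losses fell on the 13 called ones, so the pooled count does not describe how stable the calls were. Reversed values were 0.0089 with the beta-actin covariate and 0.065 without room air arrays 1 and 2 for Gprc5a. For Pecam1 they were 0.0219 with array weights, 0.0966 with the covariate, 0.0008 after centring and 0.165 without arrays 1 and 2, and for Ager 0.0475, 0.147, 0.0283 and 0.225 in the same settings. With 1 array left out the ranges crossed 0 for Pecam1 (-0.137 to 0.0233), Ager (-0.13 to 0.0733), Wt1 (-0.356 to 0.0075) and Msln (-0.049 to 0.192). The cause was not tested. Of 38 list medians 23 kept their sign in all alternatives.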
